A study of Homo sapiens with 4 samples.

Results

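The actin cytoskeleton and podosome genes described here are 46 named genes, found by symbol among the 60662 entries of the deposited count table, each matching 1 entry. They were chosen by function, with earlier results of these data known. The 10 classes run from actin itself to the proteins that nucleate, bundle, cap and sever its filaments or tie them to adhesion sites. Polyadenylated RNA was sequenced from U937 cells, a human line of myeloid origin established from a histiocytic lymphoma, kept for 72 h without or with 10 nM phorbol 12-myristate 13-acetate (PMA). PMA, a phorbol ester, switches on protein kinase C in place of diacylglycerol, and the labels give its use as differentiation towards macrophage-like cells. There were 2 untreated and 2 PMA libraries, 1 of each titled lot 1 and 1 of each titled lot 2. The titles do not say what a lot is. No other agent or genetic change is named in the labels, and the plating of cells onto a dish is described for the PMA culture and not separately for the untreated one.

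Actin cycles between monomers and filaments. Profilin and the thymosins hold monomers, the Arp2/3 complex starts branched filaments when WASP-family proteins activate it, cofilin and gelsolin cut filaments, and plastin, filamin, alpha-actinin and fascin bundle or crosslink them. Adherent macrophages carry podosomes, short-lived adhesions with a core of branched actin under a ring of integrins, talin, vinculin, paxillin and zyxin, and these structures degrade matrix and grip the substrate. In haematopoietic cells several parts come as leukocyte forms, such as the plastin LCP1, the cortactin relative HCLS1, the kindlin FERMT3 and the coronin CORO1A.

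Total counts were 35739833 to 54915928 per library, and levels are given as CPM, the count relative to a library size scaled by the trimmed mean of M-values (TMM). Paired values are always given as lot 1, then lot 2. All 8 myeloid lineage markers were above 0 in every library, with a summed level of 1880 and 2638 CPM without PMA and 13212 and 14986 CPM with it, of which ITGB2 alone made 10451 and 11987 CPM. Of these 8 markers 2 were called higher, ITGB2 and FCER1G, while CD33 had a log2 fold change of 0.06, CSF3R −0.24 and LYZ −1.63, none of the 3 called. The 4 macrophage markers summed to 68.5 and 111 CPM without PMA and 3175 and 3623 CPM with it. Of 9 fibroblast and smooth muscle markers, COL1A1, COL1A2, COL3A1, DCN, LUM and DES were at 0 in every library, and the list summed to at most 9.40 CPM. The 5 epithelial markers summed to at most 0.0216 CPM, the 4 endothelial markers were at 0, and of 6 T and B cell markers 4 were at 0 and the list summed to at most 10.0 CPM. The bulk libraries cannot tell fewer cells of a type from less RNA per cell.

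With PMA, 7 of the 44 tested members rose, and they came from 6 of the 10 classes: gelsolin (GSN), the intermediate filament protein vimentin (VIM), the myosin light chain MYL12A, the tropomyosin TPM4, the plastin LCP1, the coronin CORO1C and the kindlin FERMT3. The background was 4.29% of 16451 tested genes called higher and 2.02% called lower, by the quasi-likelihood test of edgeR at a Benjamini-Hochberg adjusted p under 0.05. No member was called lower by that test, by limma-voom or by DESeq2, and at an unadjusted p under 0.05 there were 14 higher and 1 lower, against 14.6% and 12.5% of all tested genes. DESeq2 called 12 members higher, against 12.9% of all tested genes higher and 10.2% lower. With the lot as a blocking term edgeR called 5 members higher and 0 lower, against 3.59% and 1.48% of all tested genes. The median log2 fold change of the tested members was 0.53, and that of all tested genes was 0.00. Both PMA libraries lay above both untreated libraries in 23 members and below them in 6, against 31.0% and 29.4% of all tested genes. The spread was wide, and without PMA replicate 1 or 2 the number of members called higher was 2 or 4. Upper-quartile factors, which moved the median of all genes to −0.17, gave 4.

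**Figure D1:**
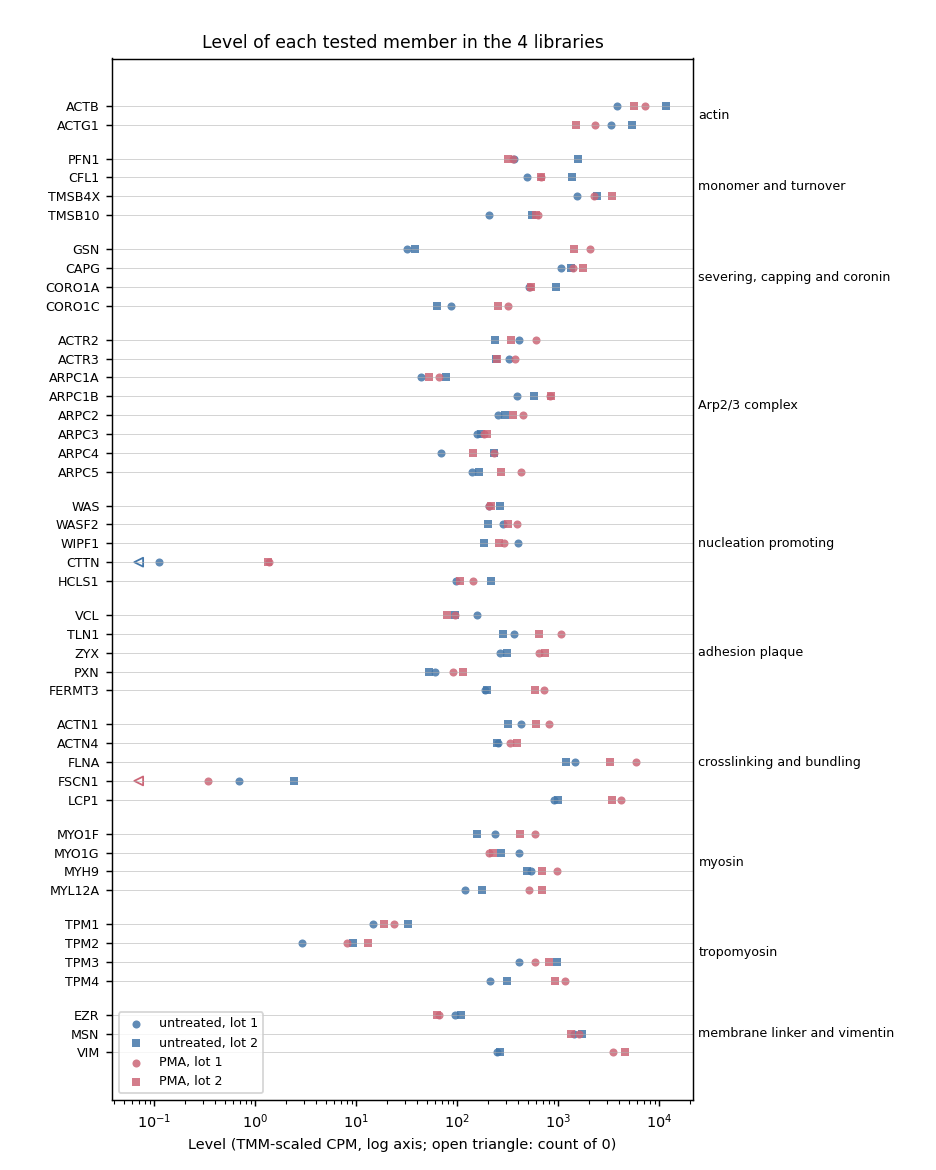
Level of each of the 44 tested members in the 4 libraries, as TMM-scaled CPM on a log axis, with circles for lot 1, squares for lot 2, blue for untreated and red for PMA, and open triangles for a count of 0. GSN and VIM show the widest gap between the colours, while ACTB, PFN1 and CFL1 show a gap between the 2 untreated libraries.

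The 46 genes took 2.53% of counts (exact 95% binomial interval 2.530 to 2.538) in untreated lot 1 and 3.80% (3.796 to 3.808) in untreated lot 2. With PMA they took 4.10% (4.090 to 4.103) in lot 1 and 3.55% (3.546 to 3.556) in lot 2. These intervals cover counting error only. The groups overlapped, and the difference between group means, 0.66 percentage points, was smaller than the spread between the untreated libraries (SD 0.897, n = 2). The classes did not share a direction. The summed level of the crosslinking and bundling genes was 3.63 times and 2.76 times as high with PMA in lots 1 and 2, and that of the adhesion plaque genes 2.53 and 2.29 times as high. The sum of the 2 actins was 1.34 times as high in lot 1 and 0.417 times as high in lot 2.

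Short stretches of promoter sequence are shown because a pair of motifs bears on this gene set. The CArG box is the binding element of serum response factor, the transcription factor that responds to actin monomer levels, and TGACTCA, with its reverse complement TGAGTCA, is the AP-1 element, also named for its response to phorbol esters. RefSeq promoters were matched by symbol for 40 of the 46 members, with 71 start sites, and the 250 bases upstream of each were searched on both strands. No promoter was matched for ACTB, ARPC1B, WASF2, CTTN, FSCN1 or MYL9, so these genes were not searched for either motif. A CArG box was found in 4 of the 71, or 5.63%, against 1.16% of 35116 promoters of the same length. An AP-1 element was also found in 4 of the 71, against 4.20% of all and 3.08% of 14832 promoters of tested genes. A match is a string of letters and not a shown binding site. The 4 CArG promoters belonged to TPM4, FLNA, ACTN1 and ACTG1, and each is given 5′ to 3′ with the box in capitals (RefSeq, GRCh38.p14):
TPM4 (chr19:16067343-16067398, plus strand): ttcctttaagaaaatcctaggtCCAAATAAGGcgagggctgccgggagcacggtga
FLNA (chrX:154374697-154374752, minus strand): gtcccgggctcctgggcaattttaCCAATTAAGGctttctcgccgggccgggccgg
ACTN1 (chr14:68977706-68977761, minus strand): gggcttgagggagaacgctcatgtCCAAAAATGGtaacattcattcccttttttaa
ACTG1 (chr17:81512862-81512917, minus strand): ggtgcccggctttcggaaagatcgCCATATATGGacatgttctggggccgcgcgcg
The boxes begin 173, 94, 171 and 94 bases before the start site in that order. TPM4 and ACTN1 also had other searched start sites without a box, and which start site these cells use was not tested. Fold changes are per gene and not per start site. Members with a box did not share a direction, since TPM4 rose, FLNA and ACTN1 had log2 fold changes of 1.77 ± 0.39 (SE) and 0.91 ± 0.33 short of the threshold, and ACTG1 had −1.18 ± 0.39. The AP-1 matches were in CAPG, HCLS1, FERMT3 and EZR, of which FERMT3 rose. CAPG and FERMT3 also had searched start sites without a match. The match of FERMT3 and that of EZR, a member with a lower level in both PMA libraries, are shown for contrast with the element in capitals:
FERMT3 (chr11:64207611-64207666, plus strand): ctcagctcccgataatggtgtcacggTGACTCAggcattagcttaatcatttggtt
EZR (chr6:158818265-158818320, minus strand): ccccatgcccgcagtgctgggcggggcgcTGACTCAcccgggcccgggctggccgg

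**Figure D2:**
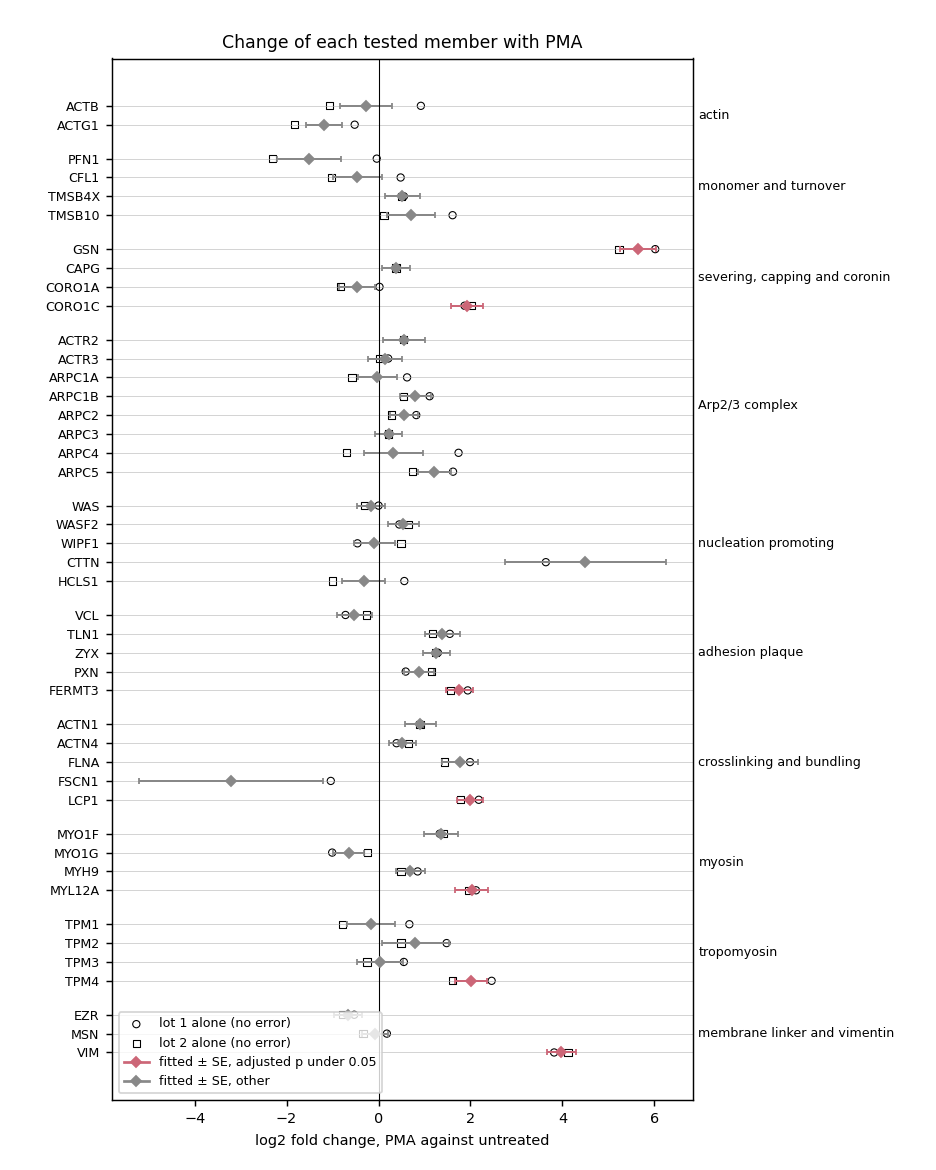
Log2 fold change of each tested member, PMA against untreated, as the fitted value ± SE (diamonds, red where the adjusted p was under 0.05) and in each lot alone (open circles for lot 1, open squares for lot 2; no error). GSN at 5.64 and VIM at 3.98 stand to the right, and ACTB and ARPC4 have the 2 lots on opposite sides of 0.

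Severing and capping proteins held the member with the highest fitted change. Gelsolin (GSN, ENSG00000148180.19), which cuts filaments in the presence of calcium and caps the new end, was at 31.5 and 37.7 CPM in untreated lots 1 and 2 and at 2036 and 1418 CPM with PMA. The groups lay far apart, with a rise of 64.7 times in lot 1 and 37.6 times in lot 2. The fitted log2 fold change was 5.64 ± 0.39 (SE, adjusted p = 0.0148), and it passed the test under all 12 alternatives at the same threshold. CAPG, the related capping protein that does not sever, was already at 1068 and 1341 CPM without PMA and was at 1397 and 1740 CPM with it (0.38 ± 0.30, adjusted p = 0.485). Within a library, GSN counts were 2.86% and 2.73% of the sum of both genes without PMA and 59.3% and 44.9% with it.

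Coronins bind filaments and help disassemble them. CORO1C, the broadly expressed form, measured 87.5 and 62.3 CPM untreated and 319 and 253 CPM after PMA. It rose in both lots (1.93 ± 0.35, adjusted p = 0.0454), a call lost without PMA replicate 1 (0.254), without PMA replicate 2 (0.156) and without untreated replicate 2 (0.0590). CORO1A, the leukocyte form, had 513 and 957 CPM in untreated cells against 521 and 539 CPM in PMA cells, so that the groups overlapped (adjusted p = 0.510). The log2 ratio of CORO1C to CORO1A counts was −2.55 and −3.94 without PMA and −0.71 and −1.09 with it.

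Of the membrane linkers and vimentin, only VIM rose. Vimentin (ENSG00000026025.16), the intermediate filament protein of mesenchymal cells and leukocytes, stood at 247 and 265 CPM in the untreated libraries and at 3494 and 4593 CPM in the PMA libraries. The 2 libraries of each group lay close together and the groups were 14.1 times apart in lot 1 and 17.3 times in lot 2 (3.98 ± 0.32, adjusted p = 0.0166), with the call kept under all 12 alternatives. Moesin (MSN), which ties actin to the plasma membrane and is the main such protein of leukocytes, measured 1423 and 1706 CPM untreated and 1610 and 1347 CPM after PMA. Ezrin (EZR), its epithelial relative, was lower, at 95.3 and 108 CPM without PMA and 66.1 and 62.9 CPM with it, but did not pass the test (−0.66 ± 0.31, adjusted p = 0.252).

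The bundling proteins held a leukocyte form that rose and a pair of others near or at 0. LCP1 (L-plastin, ENSG00000136167.14), which bundles filaments in leukocytes, had 913 and 1001 CPM in untreated cells against 4146 and 3437 CPM in PMA cells. The lots differed little and the log2 fold change was 1.99 ± 0.28 (adjusted p = 0.0309, and 0.0784 without PMA replicate 1). PLS3, the plastin of non-haematopoietic cells, was at 0 in all 4 libraries, where 3 counts would be 0.0475 to 0.0921 CPM. Fascin (FSCN1), which packs filaments into tight bundles in dendritic cells and filopodia, had 44 and 105 counts without PMA and 11 and 0 with it, at most 2.43 CPM (adjusted p = 0.380).

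Filamin A (FLNA), which crosslinks filaments into networks and binds integrin tails, stood at 1468 and 1192 CPM in the untreated libraries and at 5836 and 3219 CPM in the PMA libraries. The groups did not overlap, yet the PMA libraries differed and the gene missed the threshold (1.77 ± 0.39, adjusted p = 0.0632). It passed with DESeq2 (8.71e-04), limma-voom (0.0371), the filter of 5 CPM (0.0366) and without PMA replicate 2 (0.0287). Alpha-actinin 1 (ACTN1) measured 431 and 321 CPM untreated and 817 and 601 CPM after PMA (0.91 ± 0.33, adjusted p = 0.164), and ACTN4 at 255 and 249 CPM without PMA and 334 and 391 CPM with it (adjusted p = 0.323). Both alpha-actinins were higher in both PMA libraries without passing the test.

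Of 5 adhesion plaque proteins 1 rose, against 4.29% of all tested genes. In 4 of the 5, both PMA libraries lay above both untreated ones, against 31.0% of all tested genes. FERMT3 (kindlin-3, ENSG00000149781.12), which activates integrins together with talin in blood cells, had 188 and 198 CPM in untreated cells against 721 and 590 CPM in PMA cells. Its log2 fold change was 1.76 ± 0.30 (adjusted p = 0.0394), and it missed the threshold with lot as a blocking term (0.0563), with upper-quartile factors (0.0536) and without untreated replicate 2 (0.0517) or either PMA replicate (0.240 and 0.143). Talin (TLN1), which links integrins to actin, stood at 364 and 284 CPM in the untreated libraries and at 1063 and 637 CPM in the PMA libraries (1.39 ± 0.38, adjusted p = 0.0911, and 0.00855 with DESeq2). Zyxin (ZYX), a LIM protein of strained filaments, measured 265 and 313 CPM untreated and 646 and 738 CPM after PMA (1.26 ± 0.29, adjusted p = 0.0686, with 0.00225 by DESeq2 and 0.0396 by limma-voom). Paxillin (PXN), the scaffold for adhesion kinases, had 60.1 and 52.1 CPM in untreated cells against 90.6 and 115 CPM in PMA cells (adjusted p = 0.173).

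Vinculin (VCL), which reinforces the bond of talin to actin and is a defining podosome ring protein, did not go with the other plaque genes. It stood at 155 and 94.5 CPM in the untreated libraries and at 94.4 and 78.3 CPM in the PMA libraries. Both PMA libraries were below both untreated ones, the nearest pair by a small margin, and the change was within error (−0.53 ± 0.38, adjusted p = 0.445). By length, VCL was also the lowest of the 5 plaque genes with PMA, at 10.8 CPM per kb of its longest annotated transcript, against 278 for ZYX and 263 for FERMT3.

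Of the myosins, MYL12A rose. This regulatory light chain (ENSG00000101608.12) of non-muscle myosin II measured 119 and 175 CPM untreated and 515 and 684 CPM after PMA. The rise was 4.34 times in lot 1 and 3.90 times in lot 2 (2.03 ± 0.36, adjusted p = 0.0445), and it was lost with upper-quartile factors (0.0627) and without PMA replicate 1 (0.102) or 2 (0.198). MYL12B, a near-identical light chain that is not a member and was looked up after the values of MYL12A were seen, had 148 and 159 CPM in untreated cells against 224 and 241 CPM in PMA cells (adjusted p = 0.260), and the counting may have split reads between both. MYL9, the smooth muscle light chain, was at 0 in all 4 libraries.

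The heavy chain MYH9 of non-muscle myosin II stood at 540 and 494 CPM in the untreated libraries and at 977 and 693 CPM in the PMA libraries, higher in both PMA libraries but not past the threshold (0.69 ± 0.31, adjusted p = 0.243). Neither of the class I myosins of leukocytes, single-headed motors at the membrane, passed the test. MYO1F measured 234 and 158 CPM untreated and 590 and 420 CPM after PMA (1.36 ± 0.37, adjusted p = 0.0887, and 0.00661 with DESeq2). MYO1G had 411 and 268 CPM in untreated cells against 204 and 228 CPM in PMA cells (−0.65 ± 0.34, adjusted p = 0.304). The log2 ratio of MYO1F to MYO1G, which does not depend on library scaling, was −0.81 and −0.76 without PMA and 1.53 and 0.89 with it.

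Tropomyosins coat filaments and decide which other proteins can bind them. TPM4 (ENSG00000167460.17) stood at 209 and 307 CPM in the untreated libraries and at 1151 and 931 CPM in the PMA libraries, apart in both lots (2.01 ± 0.35, adjusted p = 0.0410). It missed the threshold with lot as a blocking term (0.0593), with upper-quartile factors (0.0592) and without PMA replicate 1 (0.159) or 2 (0.0914). TPM3 measured 404 and 972 CPM untreated and 589 and 816 CPM after PMA, with overlapping groups (adjusted p = 0.977). Per kb, TPM4 made up 39.0% and 28.0% of the 4 tropomyosins without PMA and 70.3% and 58.2% with it, while TPM3 made up 57.8% and 68.0% without and 27.6% and 39.2% with it. TPM1 (14.7 to 32.5 CPM) and TPM2 (2.90 to 13.1 CPM) were low in every library.

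**Figure D3:**
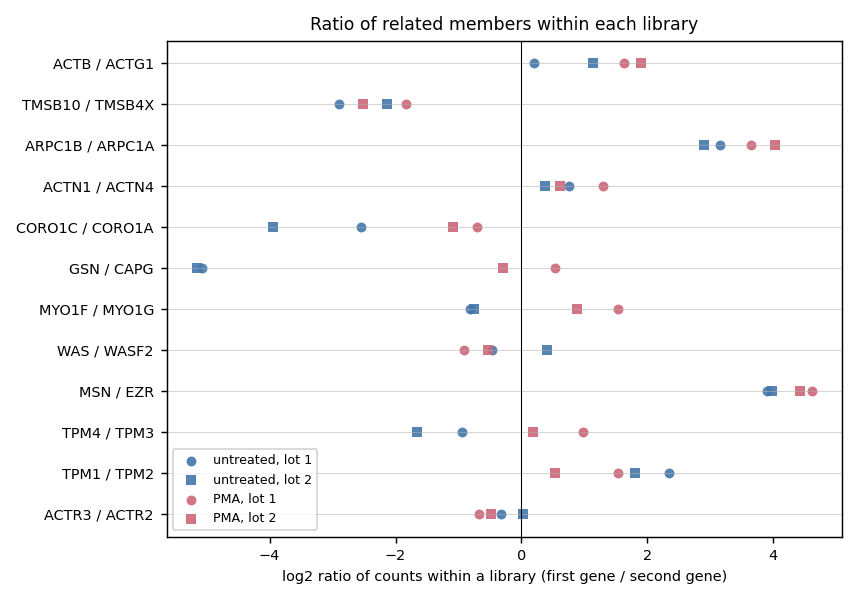
Log2 ratio of the counts of 2 related members within each library, by the same colours and shapes, for the 12 pairs with counts in every library. For GSN/CAPG, CORO1C/CORO1A, MYO1F/MYO1G, TPM4/TPM3 and ACTB/ACTG1 the PMA libraries lie to the right of both untreated libraries, and for TMSB10/TMSB4X and ACTN1/ACTN4 the groups overlap.

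The ratios of related members have 2 libraries a group, and an exact permutation test over so few libraries cannot reach 0.05, so they are given as values. The log2 ratio of TPM4 to TPM3 was −0.95 and −1.66 without PMA and 0.97 and 0.19 with it. The ratio of MSN to EZR was 3.90 and 3.98 without PMA and 4.61 and 4.42 with it, and that of ARPC1B to ARPC1A was 3.16 and 2.90 without and 3.65 and 4.03 with it. In each of these the difference between group means was larger than the SD of either group. Of the 12 pairs, the ratio was higher in both PMA libraries in 7, lower in 3 and overlapping in 2. The 3 lower pairs were WAS to WASF2, TPM1 to TPM2 and ACTR3 to ACTR2, with differences between group means of −0.70, −1.04 and −0.43.

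The 2 actins, which form the filaments, were the most abundant members without PMA by length. Beta-actin (ACTB) had 3819 and 11710 CPM in untreated cells against 7232 and 5608 CPM in PMA cells. The untreated libraries lay 3.07 times apart and enclosed both PMA libraries, so the direction was up in lot 1 (1.89 times) and down in lot 2 (0.479 times), with a fitted change of −0.27 ± 0.56 (adjusted p = 0.807). Gamma-actin (ACTG1) stood at 3334 and 5347 CPM in the untreated libraries and at 2330 and 1506 CPM in the PMA libraries, lower in both lots (−1.18 ± 0.39, adjusted p = 0.133, unadjusted p = 0.0285). The log2 ratio of ACTB to ACTG1 was 0.20 and 1.13 without PMA and 1.63 and 1.90 with it. Both actin genes are closely related and some reads may be shared, although how many was not tested. Entries named as their pseudogenes held at most 0.106% of the ACTB count and 0.204% of the ACTG1 count in any library.

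Monomer-binding and turnover proteins gave no call. Profilin (PFN1), which feeds monomers to growing ends, measured 368 and 1557 CPM untreated and 358 and 314 CPM after PMA. The high value of untreated lot 2 set the difference (−1.52 ± 0.70, adjusted p = 0.250), and without untreated replicate 1 the adjusted p was 0.0187, the only setting in which a member was called lower. Entries named as PFN1 pseudogenes held 15.9% to 24.3% of the PFN1 count, so its level is uncertain. Cofilin (CFL1), which severs old filaments, had 485 and 1366 CPM in untreated cells against 675 and 673 CPM in PMA cells (adjusted p = 0.647).

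The thymosins, small peptides that sequester monomers, were among the most abundant members by length. TMSB4X stood at 1541 and 2418 CPM in the untreated libraries and at 2261 and 3420 CPM in the PMA libraries, and entries named as its pseudogenes held counts equal to 5.40% to 6.09% of its own. TMSB10 measured 207 and 551 CPM untreated and 630 and 600 CPM after PMA. Neither passed the test (adjusted p = 0.452 and 0.463).

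Of the 8 genes of the Arp2/3 complex none was called by edgeR. Only 1 was higher at an unadjusted p under 0.05, against 14.6% of all tested genes, and DESeq2 called 1 higher, against 12.9%. That gene was ARPC5, a small subunit, at 139 and 162 CPM without PMA and 427 and 270 CPM with it (1.21 ± 0.36, adjusted p = 0.107, and 0.0239 with DESeq2). ARPC1B, the form of the ARPC1 subunit that prevails in blood cells, had 387 and 580 CPM in untreated cells against 835 and 852 CPM in PMA cells (0.80 ± 0.33, adjusted p = 0.200). Its alternative ARPC1A stood at 43.3 and 77.5 CPM in the untreated libraries and at 66.4 and 52.0 CPM in the PMA libraries. The actin-related ACTR2 went from 410 and 234 to 602 and 341 CPM, and ACTR3 from 326 and 239 to 376 and 245 CPM, both with overlapping groups.

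Of the other subunits, ARPC2 and ARPC3 were higher in both PMA libraries without passing the test, and the direction of ARPC4 differed by lot. ARPC2 measured 250 and 295 CPM untreated and 442 and 358 CPM after PMA, and ARPC3 at 158 and 170 CPM without and 183 and 197 CPM with it. ARPC4 had 69.2 and 232 CPM in untreated cells against 231 and 144 CPM in PMA cells, up in lot 1 and down in lot 2. Messages for the parts of the complex were unequal per length. With both ARPC1 genes summed as 1 place, the highest place was ARPC1 in every library and the lowest ARPC5 or ACTR3, and they differed 9.18 to 16.7 times. Lengths are those of the longest annotated transcript, which need not be the one made.

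The activators of the complex also gave no call by edgeR or DESeq2, and none had an unadjusted p under 0.05. WASP (WAS), the haematopoietic activator needed for podosome cores, stood at 205 and 266 CPM in the untreated libraries and at 205 and 217 CPM in the PMA libraries (−0.16 ± 0.30, adjusted p = 0.791). Its partner WIPF1, which stabilises WASP, measured 399 and 183 CPM untreated and 291 and 258 CPM after PMA (adjusted p = 0.926). WASF2, the WAVE protein of lamellipodia, had 284 and 201 CPM in untreated cells against 388 and 314 CPM in PMA cells (adjusted p = 0.378). HCLS1, the leukocyte relative of cortactin, stood at 96.9 and 214 CPM in the untreated libraries and at 143 and 107 CPM in the PMA libraries (adjusted p = 0.729). Cortactin (CTTN), a podosome core protein of other cell types, had 7 and 0 counts without PMA and 45 and 62 with it, at most 1.38 CPM (adjusted p = 0.186).

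By level per kb, the order of the members changed. Without PMA the highest were ACTB, ACTG1, TMSB4X and CAPG, at mean levels of 3459, 1924, 1163 and 836 CPM per kb, and with PMA they were ACTB, TMSB4X, VIM and TMSB10, at 2860, 1669, 1517 and 1239 CPM per kb. Among the 46, VIM went from place 19 to 3, GSN from 41 to 15 and MYL12A from 17 to 9, while ACTG1 went from place 2 to 7 and PFN1 from 6 to 17. Neighbours in this order mostly did not differ beyond the spread of their libraries, as for ACTB, whose untreated libraries lay 3.07 times apart.

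The authors' deposited table called 5 of the 46 members, out of 1347 calls among 60662 entries. Of these entries 33746 had a count of 0 in every library, and of the members PLS3 and MYL9 did, so the 2 shares are not directly comparable. In the authors' deposited table the log2 ratio of PMA to untreated was 5.63 for GSN, 3.97 for VIM, 2.02 for MYL12A and 1.97 for LCP1, with q-values of 2.86e-13, 1.14e-07, 0.0363 and 0.0298. TPM4 had a q-value of 0.0340 in the authors' deposited table. CORO1C and FERMT3 were not called in the authors' deposited table.

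The lots differed most without PMA. Of the 40 members with a mean of 50 CPM or more and a count in every library, 8 differed more than 2-fold between the untreated libraries and 0 between the PMA libraries. Of all 4143 such genes, 25.6% and 4.08% did so. In untreated lot 2 against lot 1, PFN1 was 4.23 times, ARPC4 3.36 times, ACTB 3.07 times, CFL1 2.82 times and TMSB10 2.66 times as high, while WIPF1 was 0.460 times as high. With PMA, in the same order, the ratios of lot 2 to lot 1 were 0.876, 0.621, 0.775, 0.998, 0.952 and 0.887.

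**Figure D4:**
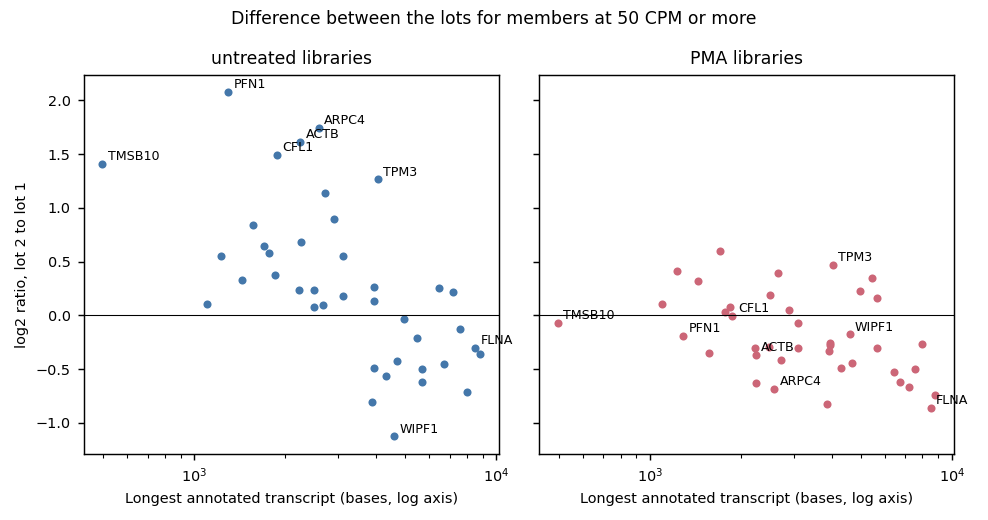
Log2 ratio of lot 2 to lot 1 in the untreated libraries (left) and in the PMA libraries (right) for the 40 members at 50 CPM or more, against the length in bases of the longest annotated transcript on a log axis. PFN1, CFL1 and ACTB lie well above 0 on the left, and within 0.5 of 0 on the right.

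Length moved with this difference. Across the 40 members the Spearman correlation of the log2 ratio of lot 2 to lot 1 with transcript length was −0.66 without PMA and −0.44 with PMA, and across 4141 genes with a length it was −0.49 and −0.32. These are descriptions over genes of the same 4 libraries and carry no test. The share of counts from mitochondrial genes was also higher in lot 2, at 8.58% against 3.66% without PMA and 5.99% against 2.81% with it. The part of length, mitochondrial share or the lot itself in the values of ACTB, PFN1 and CFL1 was not tested. In GSN and VIM the untreated libraries differed 1.20 and 1.07 times.

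Other genes of the actin machinery, 138 in 8 lists, were read in the same fit. The lists were chosen by function, with earlier results of these data known, so their counts are descriptive only. Of 119 tested, 19 rose and 1 fell, against 4.29% and 2.02% of all tested genes. DESeq2 called 35 higher and 9 lower, against 12.9% and 10.2% of all tested genes. Without PMA replicate 1 or 2 the edgeR number higher was 6 in both cases. The median log2 fold change of the 119 was 0.48, close to the 0.53 of the members.

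The adhesion plaque and podosome list held 9 of the 19, with 9 of 20 tested genes higher and 0 lower by edgeR, against 4.29% and 2.02% of all tested genes. At an unadjusted p under 0.05, 10 of the 20 were higher and 2 lower, against 14.6% and 12.5%. DESeq2 called 10 higher and 1 lower, against 12.9% and 10.2%. Tensin 1 (TNS1), which binds integrin tails and actin, measured 3.28 and 2.87 CPM untreated and 79.5 and 69.2 CPM after PMA (4.59 ± 0.40, adjusted p = 0.0189). SH3PXD2B (TKS4), a scaffold that podosomes need to degrade matrix, had 6.85 and 2.85 CPM in untreated cells against 174 and 106 CPM in PMA cells (4.85 ± 0.64, adjusted p = 0.0277). The kinase SRC, a starter of podosome assembly, stood at 3.23 and 4.91 CPM in the untreated libraries and at 60.8 and 59.3 CPM in the PMA libraries (3.88 ± 0.44, adjusted p = 0.0244). In all 3 genes the groups lay over 10-fold apart and the call was kept under all 12 alternatives.

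Among other myosins, 2 of 9 tested rose and 0 fell by edgeR, against 4.29% and 2.02% of all tested genes. MYO1E, a class I myosin of podosomes and phagocytic cups, measured 3.47 and 3.94 CPM untreated and 259 and 223 CPM after PMA (6.02 ± 0.37, adjusted p = 0.0148), a larger fitted change than that of any member. MYO9B, an unconventional myosin, had 154 and 133 CPM in untreated cells against 663 and 635 CPM in PMA cells (2.18 ± 0.29, adjusted p = 0.0281). The call of MYO9B was lost without PMA replicate 1 (0.104) or 2 (0.0992).

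**Figure D5:**
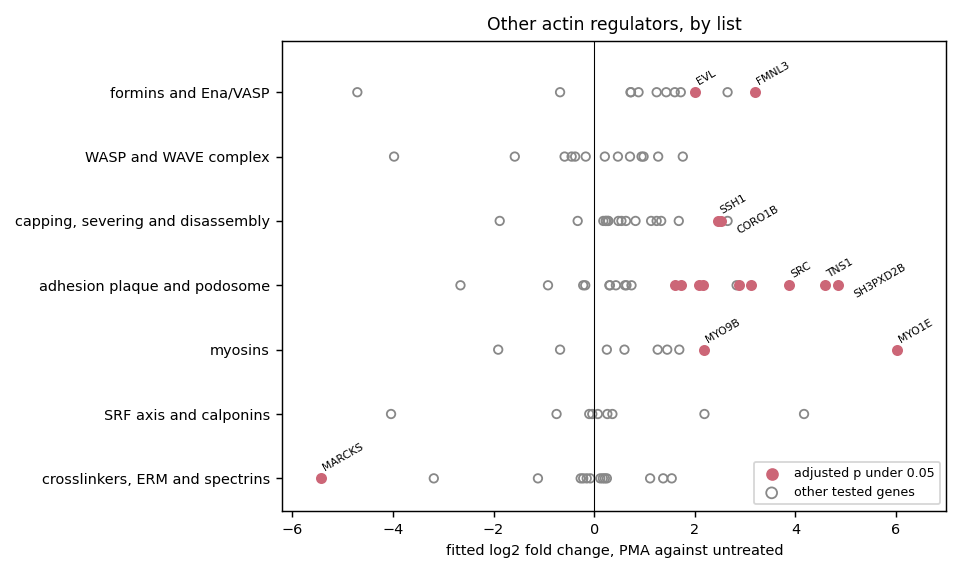
Fitted log2 fold change of tested genes in 7 of the 8 lists of other actin regulators, with filled red points for an adjusted p under 0.05 and open grey points for the rest. The adhesion plaque and podosome list has 9 filled points, all to the right of 0, and MARCKS is the 1 filled point to the left.

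Among the other effectors, LIMK1, the kinase that inactivates cofilin, rose and stood at 66.9 and 80.3 CPM in the untreated libraries and at 542 and 540 CPM in the PMA libraries (2.88 ± 0.31, adjusted p = 0.0229).

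Of 12 formins and Ena/VASP proteins, which extend unbranched filaments, 2 rose and 0 fell by edgeR, against 4.29% and 2.02% of all tested genes. DESeq2 called 6 higher and 1 lower, against 12.9% and 10.2%. The lower gene was DIAPH3, named after its values were seen. It had 23.3 and 10.7 CPM without PMA and 1.32 and 0 CPM with it (−4.71 ± 1.88, adjusted p = 0.193, and 0.0154 with DESeq2). FMNL3 measured 37.0 and 27.0 CPM untreated and 265 and 321 CPM after PMA (3.19 ± 0.36, adjusted p = 0.0236, and 0.0522 without PMA replicate 2). EVL had 74.1 and 93.4 CPM in untreated cells against 342 and 335 CPM in PMA cells (2.01 ± 0.31, adjusted p = 0.0350), a call lost without PMA replicate 1 (0.164) or 2 (0.159). Of 18 capping, severing and disassembly genes, 2 rose and 0 fell by edgeR, and DESeq2 called 5 higher and 0 lower, against the same shares of all tested genes. The 2 that rose were the cofilin phosphatase SSH1 (2.46 ± 0.38, adjusted p = 0.0354) and the coronin CORO1B (2.52 ± 0.34, adjusted p = 0.0282). Without PMA replicates 1 and 2 the adjusted p was 0.176 and 0.0752 for SSH1 and 0.145 and 0.0953 for CORO1B, and it was 0.0516 for SSH1 without untreated replicate 2.

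In the other 3 lists the single call was a gene that fell. It came from 14 tested crosslinkers, membrane linkers and spectrins, with 0 higher and 1 lower by edgeR, against 4.29% and 2.02% of all tested genes. DESeq2 called 2 of the 14 higher and 3 lower, against 12.9% and 10.2%. MARCKS, a protein kinase C substrate that crosslinks actin at the membrane, stood at 27.7 and 28.8 CPM in the untreated libraries and at 0.829 and 0.476 CPM in the PMA libraries (−5.44 ± 0.57, adjusted p = 0.0224), a call kept under all 12 alternatives. Of 13 WASP and WAVE complex genes none was called by edgeR, and 2 higher and 2 lower were found both at an unadjusted p under 0.05 and by DESeq2, near the shares over all tested genes (14.6% and 12.5% unadjusted, 12.9% and 10.2% by DESeq2). The smallest p was that of CYFIP1, a WAVE complex subunit (1.76 ± 0.46, adjusted p = 0.0850, and 0.00298 with DESeq2). Its paralog CYFIP2, named after its values were seen, had 83.7 and 44.9 CPM in untreated cells against 7.18 and 0.973 CPM in PMA cells (−3.98 ± 1.06, adjusted p = 0.0874). CYFIP2 passed the test with lot as a blocking term (0.0476), the 5 CPM filter (0.0463), limma-voom (0.0333), DESeq2 (1.43e-04) and without PMA replicate 1 (0.0202). Of 9 genes of the serum response factor axis and the calponins none was called by edgeR or had an unadjusted p under 0.05. DESeq2 called 1 of the 9 higher and 0 lower, against 12.9% and 10.2% of all tested genes. The gene it called was MRTFB (2.19 ± 0.86, adjusted p = 0.187, and 0.0333 with DESeq2).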

How the data were processed

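RNA was measured in 4 U937 libraries. Estimated counts per gene were deposited by the authors, whole and unscaled, with HISAT2 2.1.0 and StringTie 2.1.1 listed, without their roles, per the submitters' processing notes. Genome build, annotation, counting program and strand setting are all not given in the sources used here. Values of overlapping or near-identical genes are therefore uncertain. The authors' deposited second table holds a signal (the count times 1 factor per library), a log2 ratio, and a p-value and q-value per gene, from an unnamed test.

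Counts were tested with edgeR 4.0.16 in R 4.3.3 (TMM, filterByExpr by group, quasi-likelihood test, Benjamini-Hochberg over 16451 genes at 0.05, no block). Each SE is the log2 fold change over the root of F. Libraries were paired by the lot in their titles, and deviations of same-lot libraries correlated at 0.154. Nothing in the labels says that lots were cultured apart, so the spread behind the p-values may be technical only. Alternatives were RLE and upper-quartile factors, no filter, 5 CPM in 2 libraries, DESeq2 1.42.0, limma-voom (limma 3.58.1), the lot as a block, library sizes without the 20 most abundant and mitochondrial genes, leaving out each library, and an adjusted p under 0.01. The first 12 of these keep the threshold of 0.05. Ratios within a library added 0.5 counts. Transcript length came from GENCODE and promoters from RefSeq. The test was also run on counts simulated without a lot difference, so that run does not bear on the lot differences given above. Members and lists were chosen with earlier results of these data known. All members may be named, and of each other list up to 3 called genes with the smallest p and 1 in the opposite direction, or the smallest p where none was called. The genes of 1 list of other regulators are counted in the totals, and that list is not reported singly here.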

Additional observations from a re-analysis of the deposited data

How the results depend on the processing

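Numbers called changed with the setting, and the direction of several uncalled members changed too. With DESeq2, 12 members were higher, as were 2127 of all genes with 1684 lower, and 35 of the other actin regulators with 9 lower. With limma-voom all genes gave 1149 higher and 636 lower, and the other regulators 3 lower. Upper-quartile factors left 4 members higher. A filter of 5 CPM gave 721 genes lower, 4 of them among the other regulators. At an adjusted p under 0.01, 0 genes, 0 members and 0 other regulators were called in either direction, since the smallest adjusted p was 0.0148. In the paired analysis with lot as a replicate block, 5 members and 591 genes were higher, 244 genes were lower and 4 other regulators were lower. Of single genes outside the list not reported singly, the block ended the calls of FERMT3 (0.0563), TPM4 (0.0593), PTK2B (0.0547), LSP1 (0.0538) and LPXN (0.0612). It brought past the threshold SH3PXD2A (0.0411), higher with PMA, and CYFIP2 (0.0476), TLN2 (0.0402) and ANLN (0.0351), which were lower. The talin TLN2 was at 131 and 51.8 CPM without PMA and 19.7 and 9.15 CPM with it. LSP1, LPXN, TLN2 and ANLN were named after their values were seen. The block also turned the signs of ARPC1A (0.02) and WIPF1 (0.02). Leaving out 1 library at a time gave 424 to 1830 genes higher and 79 to 1085 lower, 2 to 7 members higher and 0 to 1 lower, and 6 to 35 other regulators higher and 1 to 3 lower. Other reversals were in uncalled genes: ACTR3 with upper-quartile factors (−0.03), ARPC1A with limma-voom (0.03), and TPM3 with upper-quartile factors (−0.17), the 5 CPM filter (−0.04) and library sizes without the top 20 and mitochondrial genes (−0.04). Leaving out 1 library turned the sign of the log2 fold change of ACTB (−0.93 to 0.75), CFL1 (−1.08 to 0.47), CORO1A (−0.91 to 0.05), ACTR3 (−0.27 to 0.43), ARPC1A (−0.45 to 0.45), ARPC4 (−0.37 to 1.44), WAS (−0.40 to 0.04), WIPF1 (−0.54 to 0.52), HCLS1 (−0.84 to 0.36), TPM1 (−0.68 to 0.53), TPM3 (−0.53 to 0.80) and MSN (−0.28 to 0.06), none of them called. A CArG box with up to 1 mismatch in its core was found in 15.5% of member promoters, against 7.04% of all. The cause of these changes was not tested, apart from the fewer libraries or genes that some settings use. With 2 libraries a group and a biological coefficient of variation of 0.626, precision was limited by the spread between libraries rather than by depth in genes above a few CPM.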

Other observations

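A pair of genes around the actin core, chosen after their values were seen, had overlapping groups. Serum response factor (SRF) had 160 and 197 CPM in untreated cells against 159 and 174 CPM in PMA cells (adjusted p = 0.873), and its cofactor MRTFA had 56.4 and 50.4 CPM untreated and 55.7 and 56.6 CPM after PMA (adjusted p = 0.915). A p above the threshold does not show that these levels were equal.

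Of 3 more, also chosen after their values were seen, all were higher in both PMA libraries, and which of them passed the test varied with the setting. SH3PXD2A (TKS5), the other podosome scaffold of its kind, measured 61.3 and 19.8 CPM untreated and 348 and 227 CPM after PMA (2.83 ± 0.65, adjusted p = 0.0672). It passed with the lot as a blocking term (0.0411), the 5 CPM filter (0.0344), limma-voom (0.0322), DESeq2 (6.23e-05) and without untreated replicate 1 (0.0189). CAP1, which recycles actin monomers with cofilin, had 292 and 202 CPM in untreated cells against 905 and 681 CPM in PMA cells (1.68 ± 0.35, adjusted p = 0.0585), and passed with the 5 CPM filter (0.0344), limma-voom (0.0322), DESeq2 (2.60e-04) and without untreated replicate 1 (0.0345). The focal adhesion kinase gene PTK2 was listed at 0 in all 4 libraries, while its relative PTK2B stood at 107 and 119 CPM in the untreated libraries and at 366 and 380 CPM in the PMA libraries (1.73 ± 0.29, adjusted p = 0.0393). PTK2B missed the threshold with the lot as a blocking term (0.0547), with upper-quartile factors (0.0550) and without PMA replicate 1 (0.219) or 2 (0.235).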
